A study of Drosophila melanogaster with 8 samples.

Results

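The proteasome genes of Drosophila melanogaster were followed in whole adult flies carrying a mutation in DHR39, a nuclear receptor whose gene symbol is Hr39, and in control flies. Members were all genes whose name in the deposited gene table begins with Prosalpha, Prosbeta, Rpn or Rpt followed, for the last 2, by a number. The rule found 46 of 14865 genes, namely 31 canonical subunits and 15 paralogs with a T or an R after the subunit number. The 3 DHR39 libraries, named DHR393.48 in the deposited sample sheet, were set against 5 control libraries, named w1118 there and re-used from another series. Every fly was taken at day 8 of adulthood and had been kept on food with 8% yeast and 9% sugar. The labels give neither the sex of the flies nor the lesion of the allele, and the series title concerns male fertility.

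The proteasome is the protease that degrades proteins tagged with ubiquitin. Its core particle is a barrel of outer alpha rings, which gate the entry, and inner beta rings, which hold the proteolytic sites. The regulatory particle caps the barrel, with Rpt ATPases that unfold the substrate and Rpn subunits that bind ubiquitin, remove it or act as scaffold. Drosophila carries duplicated copies of many subunit genes, and several of these copies are known for expression in the testis, where Prosalpha6T is needed for male fertility.

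Libraries held 16072497 to 19935574 counts, and all 46 members passed the filter on low counts, with 110 to 4757 counts in any library. Values below are scaled CPM, for which each library total was first adjusted with its TMM factor, listed for DHR39 replicates 1 to 3 and control replicates 1 to 5. A log2 fold change is DHR39 over control ± SE, and a gene is called at a Benjamini-Hochberg adjusted p under 0.05 over 13506 tested genes (edgeR quasi-likelihood test, two-sided). Hr39 itself stood at 27.0 ± 2.89 scaled CPM in DHR39 flies and 36.2 ± 2.38 in controls (SD, n = 3 and n = 5; edgeR adjusted p = 0.0119). The labels do not say whether replicates were raised separately, so p-values here describe the spread of these libraries, part of which could be technical. In whole flies, fewer cells of a type and less RNA per cell cannot be told apart.

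By group means, canonical subunits were expressed above the paralogs. Per kilobase of annotated exon, the 31 canonical subunits lay between 50.6 and 129.5 scaled CPM in DHR39 flies and between 60.6 and 149.9 in controls, and the 15 paralogs between 9.95 and 42.4 in DHR39 flies and between 9.49 and 46.8 in controls. By level per kilobase in controls, canonical subunits stood at percentiles 87.1 to 95.0 of the 13412 tested genes with an annotated length, and paralogs at percentiles 44.2 to 83.1. The core particle had a median of 111.0 scaled CPM per kilobase in DHR39 flies and 139.1 in controls, and the regulatory particle 65.9 in DHR39 flies and 73.4 in controls. The alpha and beta rings lay close together, at medians of 139.0 and 139.1 in controls. The most abundant per kilobase in controls were Prosalpha2, Prosalpha7 and Prosbeta5, at 149.9, 143.5 and 143.1 scaled CPM, and with the longest transcript as the length Prosalpha5 stood among them, at 149.4 in place of 139.8. The least abundant canonical subunits were Rpn3, Rpn1 and Rpt3, at 60.6, 62.3 and 63.6. Prosalpha4, at 82.4 per kilobase in controls, was the lowest of the core particle, and Rpn6, a scaffold of the lid, was the highest of the regulatory particle at 126.6.

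**Figure D1:**
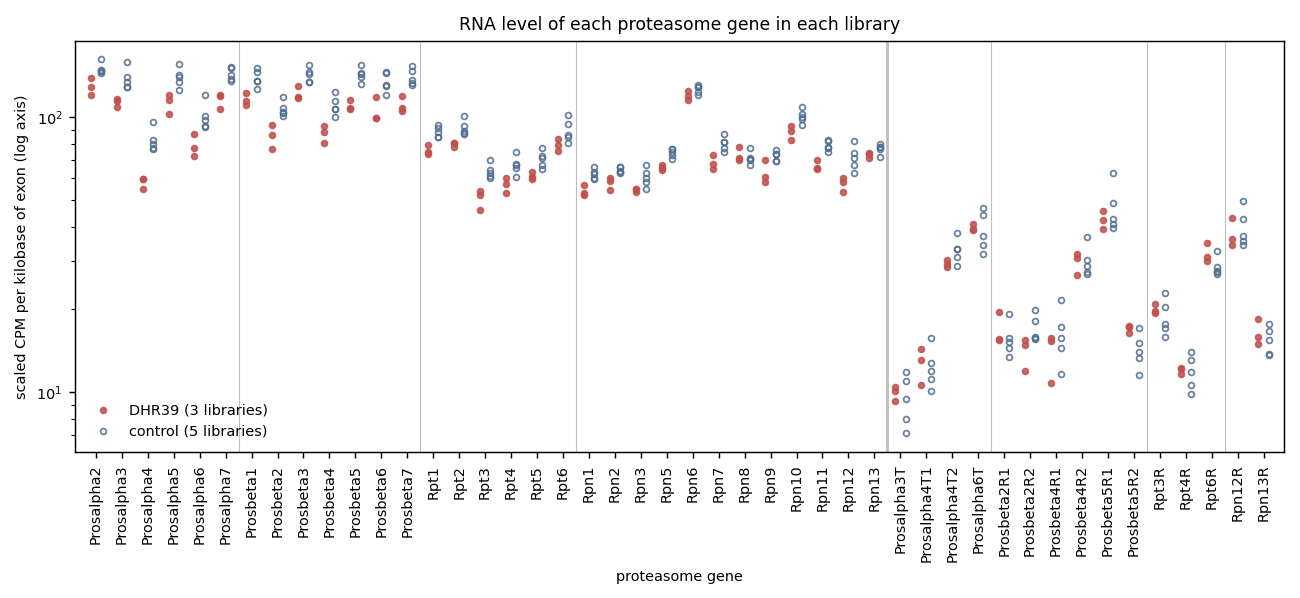
Scaled CPM per kilobase of exon (log axis) of the 46 proteasome genes in each of the 3 DHR39 libraries (filled points) and 5 control libraries (open points); lines divide the alpha ring, beta ring, base ATPases and non-ATPase subunits, first canonical and then paralog. Canonical subunits lie above the paralogs except that some points of Prosbeta5R1, Rpn12R and Prosalpha6T reach the lowest canonical points. All 13 core subunits have their DHR39 points below their control points.

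RNA of the core particle was lower in DHR39 flies. Of its 13 canonical subunits measured, 10 fell and 0 rose, and 3 missed the threshold, with a median log2 fold change of -0.33 and all 13 below 0. Over all tested genes 10.7% were called lower and 6.58% higher, 17.3% in all, and the median log2 fold change was -0.0044. In all 13 the highest DHR39 library stood below the lowest control, which held for 13.4% of tested genes, while 9.74% had all DHR39 libraries above all controls. Another core subunit, Prosalpha1, was not analysed here. These calls depend on the scale, as the values for library totals given further on show.

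The alpha ring forms the gated ends of the barrel. Of its 6 subunits 5 fell and 0 rose, where 10.7% of all tested genes were called lower and 6.58% higher. Prosalpha4, on X from 16276270 to 16277587 in the BDGP6 annotation, had 70.1, 64.6 and 69.8 scaled CPM in DHR39 flies, against 94.2, 112.5, 96.8, 90.4 and 90.8 in controls. It fell by 0.51 ± 0.09 on the log2 scale (edgeR adjusted p = 0.00272), the largest change among the members, and passed in all 14 settings run, with adjusted p from 1.39e-05 to 0.0182. No DHR39 library reached the controls, and control replicate 2 was the highest. Prosalpha6 had 92.8, 77.1 and 82.9 scaled CPM in DHR39 flies, against 104.5, 128.4, 107.9, 99.7 and 98.3 in controls (log2 fold change -0.36 ± 0.11, edgeR adjusted p = 0.0383). Prosalpha7 had 118.0, 116.6 and 104.8 in DHR39 flies, against 138.8, 148.5, 147.1, 131.9 and 133.9 in controls (-0.31 ± 0.08, edgeR adjusted p = 0.0218). Both kept a gap between the groups, of which that of Prosalpha7 was the wider. Prosalpha5 had 109.3, 97.2 and 113.7 in DHR39 flies, against 127.3, 147.2, 132.4, 134.8 and 118.7 in controls (-0.31 ± 0.09, edgeR adjusted p = 0.0386, or 0.0716 once same-named replicates were blocked). Prosalpha3, part of the gate of the entry channel, had 111.2, 105.8 and 113.6 in DHR39 flies, against 130.9, 153.9, 136.5, 125.6 and 125.6 in controls (-0.29 ± 0.09, edgeR adjusted p = 0.0437, and 0.0688 with the block). Neither pair of groups overlapped, but both calls lay near the threshold. Of the 14 settings, Prosalpha7 was called in 11, losing the call with library totals alone and without DHR39 replicate 2 or 3. Prosalpha6 was called in 8, and it was also lost without control replicate 1, 2 or 3. Prosalpha5 was called in 5 and Prosalpha3 in 4, and leaving out any library ended the call, except that of control replicate 5 for Prosalpha5. Prosalpha2 had 128.2, 110.5 and 118.7 in DHR39 flies, against 133.4, 149.2, 135.5, 134.9 and 136.7 in controls, and did not pass (-0.21 ± 0.08, edgeR adjusted p = 0.101).

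The beta ring carries the proteolytic sites, in Prosbeta1, Prosbeta2 and Prosbeta5. Of its 7 subunits 5 fell and 0 rose, where 10.7% of all tested genes were called lower and 6.58% higher. Prosbeta5, which holds the chymotrypsin-like site and lies on 2R from 10819978 to 10821178, had 131.0, 122.0 and 123.3 scaled CPM in DHR39 flies, against 159.1, 176.7, 163.9, 164.8 and 150.6 in controls. It fell by 0.38 ± 0.08 (edgeR adjusted p = 0.00622) and passed in 13 of 14 settings, the exception being library totals alone (0.0642). Every DHR39 library was under every control by a clear margin. Prosbeta2, which holds the trypsin-like site, had 96.5, 78.9 and 89.1 in DHR39 flies, against 111.4, 122.8, 106.8, 107.6 and 104.5 in controls (-0.33 ± 0.09, edgeR adjusted p = 0.0289, and 0.0521 with the block). Prosbeta1, which holds the caspase-like site, did not pass, at 98.8 ± 4.76 in DHR39 flies and 118.5 ± 8.44 in controls (SD, n = 3 and n = 5; log2 fold change -0.26 ± 0.08, edgeR adjusted p = 0.0539, in a range of 0.0301 to 0.358 over the settings). Of the subunits without a proteolytic site, Prosbeta7 had 145.6, 127.8 and 131.3 in DHR39 flies, against 178.4, 185.9, 166.4, 159.7 and 161.4 in controls (-0.34 ± 0.09, edgeR adjusted p = 0.0182). Prosbeta6 had 111.9, 94.1 and 93.4 in DHR39 flies, against 123.0, 136.5, 138.3, 113.4 and 123.7 in controls (-0.35 ± 0.10, edgeR adjusted p = 0.0289). For Prosbeta6 the gap was narrow, since DHR39 replicate 1 came close to control replicate 4. Prosbeta4 had 75.8, 65.6 and 72.1 in DHR39 flies, against 81.9, 100.4, 93.3, 87.6 and 86.9 in controls (-0.34 ± 0.09, edgeR adjusted p = 0.0247). Without DHR39 replicate 2 or 3, and with library totals alone, the calls of Prosbeta2, Prosbeta4, Prosbeta6 and Prosbeta7 were lost. Prosbeta4 and Prosbeta7 held in the other 11 of 14 settings, while Prosbeta6 held in 9, being lost also without control replicate 2 or 5, and Prosbeta2 in 8, being lost also without control replicate 1 or 4. Prosbeta3 missed the threshold as well, at -0.22 ± 0.08 by edgeR, with an adjusted p of 0.0878.

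**Figure D2:**
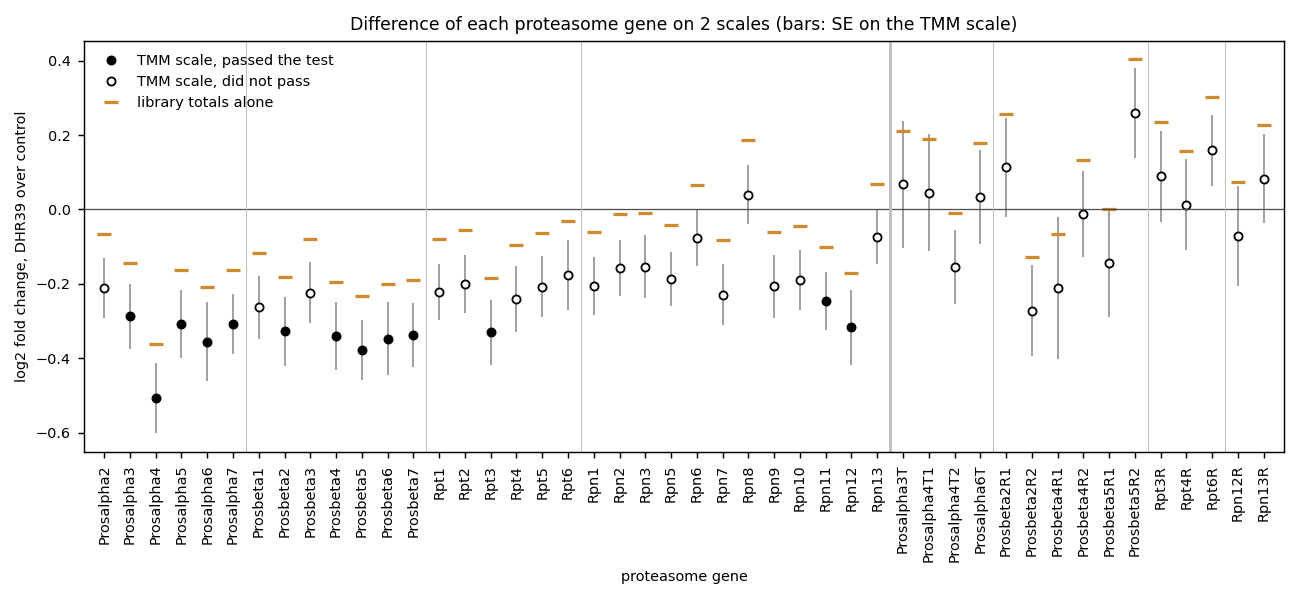
Log2 fold change of DHR39 over control for each of the 46 proteasome genes with TMM scaling (circles, filled where the gene passed the test, bars SE) and with library totals alone (dashes). Of 31 canonical subunits 30 lie below 0 with TMM scaling, the paralogs lie on both sides of 0, and every dash lies higher than its circle.

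In the regulatory particle 3 of 18 subunits fell, 0 rose and 15 did not pass. This count of calls is not far from the shares over all tested genes, 10.7% called lower and 6.58% higher. By scaled CPM, however, 12 of the 18 had all DHR39 libraries below all controls and 0 above. Over all tested genes 13.4% lay wholly below and 9.74% wholly above. With library totals alone 0 of the 18 lay wholly below and 1 wholly above, against 8.35% and 19.9%. The median log2 fold change of the 18 was -0.20, with 17 of 18 below 0. Among the ATPases of its base, Rpt3 fell, with 83.7, 80.7 and 71.3 scaled CPM in DHR39 flies, against 93.4, 108.6, 97.2, 95.2 and 99.5 in controls (-0.33 ± 0.09, edgeR adjusted p = 0.0222). The DHR39 libraries all lay below the controls, and the call held in 11 of 14 settings, not with library totals alone or without DHR39 replicate 2 or 3. The other 5 ATPases, Rpt1, Rpt2, Rpt4, Rpt5 and Rpt6, did not pass, with log2 fold changes from -0.24 to -0.18.

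Of the 12 non-ATPase subunits 2 fell, where 10.7% of all tested genes were called lower. Rpn12, a lid subunit, had 57.9, 53.4 and 59.6 in DHR39 flies, against 66.5, 81.4, 73.7, 62.5 and 70.5 in controls (-0.32 ± 0.10, edgeR adjusted p = 0.0495). Rpn11, the deubiquitinase that removes ubiquitin chains from substrates, had 84.2, 78.8 and 78.2 in DHR39 flies, against 94.2, 100.0, 99.1, 90.2 and 93.5 in controls (-0.25 ± 0.08, edgeR adjusted p = 0.0481, and 0.0669 with the block). Both calls were near the threshold, with adjusted p of 0.0263 to 0.233 for Rpn12 and 0.0224 to 0.384 for Rpn11 over the settings, and held in 5 and 3 of 14. Leaving out any single library ended the call of Rpn11, and any but control replicate 4 that of Rpn12. The scaffold Rpn1 had 159.1, 173.1 and 160.7 in DHR39 flies, against 189.2, 200.9, 183.5, 181.1 and 192.9 in controls, and did not pass (-0.21 ± 0.08, edgeR adjusted p = 0.0943). Rpn3 had 100.5, 100.7 and 97.8 in DHR39 flies, against 114.7, 123.2, 106.3, 109.6 and 100.6 in controls, where the lowest control lay among the DHR39 values (-0.15 ± 0.08, edgeR adjusted p = 0.271). Closest to 0 were Rpn8, which pairs with Rpn11, at 0.04 ± 0.08 (0.808), the ubiquitin receptor Rpn13, at -0.074 ± 0.07 (0.583), and Rpn6, at -0.078 ± 0.08 (0.575). Rpn8 was the single canonical subunit above 0, and it turned to -0.0072 without DHR39 replicate 1, while Rpn13 and Rpn6 turned to 0.070 and 0.067 with library totals alone.

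Over all 31 canonical subunits, 13 were called lower and 0 higher, against 10.7% and 6.58% of all tested genes. By scaled CPM 25 had all DHR39 libraries below all controls and 0 above, against 13.4% and 9.74% of tested genes. DESeq2 called 15 lower and 0 higher, against 11.1% and 6.89% of all genes, and RLE factors 13 and 0, against 10.6% and 6.74%. With same-named replicates as a block 9 were lower and 0 higher, against 11.2% and 7.90%. Without single libraries the count was 7, 7, 8, 9 and 9 for control replicates 1 to 5 and 10, 2 and 2 for DHR39 replicates 1 to 3. Of all tested genes, 13409 to 13678 in these fits, 1292, 1344, 1458, 1316 and 1249 were lower without control replicates 1 to 5. Without DHR39 replicates 1 to 3, 1252, 1079 and 1013 of all tested genes were lower. In each of these fits 0 canonical subunits were called higher, against 553 to 955 of all tested genes. The scale set the count: with library totals alone 1 canonical subunit, Prosalpha4 (-0.36, edgeR adjusted p = 0.0152), was called lower and 0 higher, while 7.70% of tested genes were called lower and 14.8% higher, 22.5% in all. On that scale 4 canonical subunits had all DHR39 libraries below all controls and 1, Rpn8, above, against 8.35% and 19.9% of tested genes. On library totals the typical tested gene itself shifted, to a median log2 fold change of 0.14. Relative to the median of all genes, canonical subunits stood at a median of -0.22, the core particle at -0.32 and the regulatory particle at -0.20, values that a change of scale leaves nearly the same by construction. Summed over the 31 genes, canonical subunits took 3869, 3578 and 3614 CPM of the unadjusted library total in DHR39 flies, against 3737, 4158, 3998, 3897 and 3787 in controls, and the groups overlapped.

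Ratios within a library do not depend on the scale. The median count per kilobase of the core particle over that of the regulatory particle had a log2 value of 0.73, 0.70 and 0.74 in DHR39 libraries, against 0.91, 0.90, 0.87, 0.87 and 0.85 in controls. All 3 DHR39 libraries lay below all 5 controls, with a difference of means of -0.16, wider than the SD of 0.019 in DHR39 flies (n = 3) and 0.025 in controls (n = 5). By contrast the alpha ring over the beta ring was at 0.0053 ± 0.048 in DHR39 flies and 0.0013 ± 0.046 in controls, and base ATPases over non-ATPase subunits at 0.032 ± 0.043 in DHR39 flies and 0.093 ± 0.048 in controls (SD, n = 3 and n = 5), and both pairs of groups overlapped. These ratios pool members proposed with earlier results known, so no p-value is given for them. No share of ratios without overlap was computed over other gene sets, so the gap in the core over regulatory ratio has no background. The lower levels of the core subunits, already described, enter that ratio.

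**Figure D3:**
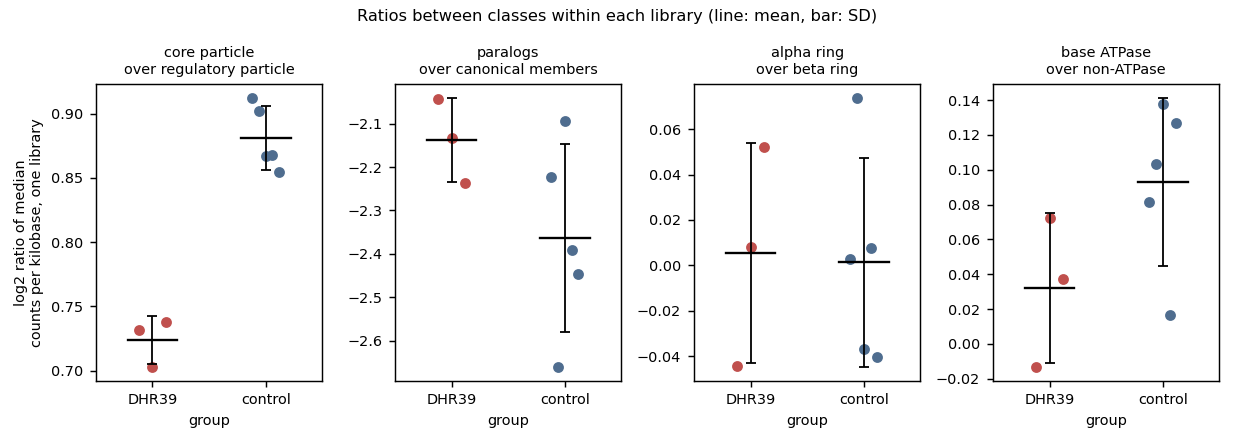
Log2 ratio of the median count per kilobase between classes of proteasome genes in each library, with DHR39 left of control in each panel, lines for means, bars for SD and a separate vertical scale per panel. The core over regulatory ratio is lower in all 3 DHR39 libraries (0.70 to 0.74) than in all 5 controls (0.85 to 0.91), and in the other panels the groups overlap.

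The 15 paralogs gave no call in either direction. With edgeR and TMM scaling 0 rose and 0 fell, against 6.58% and 10.7% of all tested genes, 1 had an unadjusted p under 0.05, and DESeq2 called 0. Their median log2 fold change was 0.034, with 9 above and 6 below 0. With library totals alone 1 rose, Prosbeta5R2, and it also rose without control replicate 3. The spread between replicates was larger than for canonical subunits, with a median coefficient of variation in controls of 14.6% against 6.15%.

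The 4 genes named for testis expression all belong to the alpha ring. Prosalpha6T had 39.7, 41.9 and 39.9 scaled CPM in DHR39 flies, against 44.8, 37.8, 47.8, 32.6 and 34.9 in controls (0.034 ± 0.13, edgeR adjusted p = 0.905). The DHR39 values lay inside the range of the controls. Prosalpha4T2 had 38.00, 35.9 and 36.8 in DHR39 flies, against 41.4, 41.8, 47.4, 36.02 and 38.8 in controls (-0.15 ± 0.10, edgeR adjusted p = 0.363). Prosalpha4T1 had 11.7, 12.8 and 9.44 in DHR39 flies, against 9.00, 11.4, 14.03, 9.98 and 10.6 in controls (0.045 ± 0.16, edgeR adjusted p = 0.898). Both copies of Prosalpha4 thus had overlapping groups, whereas the groups of Prosalpha4 itself did not overlap. Prosalpha3T, the least abundant of all members, had 9.33, 8.25 and 8.97 in DHR39 flies, against 8.43, 6.31, 10.5, 9.77 and 7.13 in controls (0.068 ± 0.17, edgeR adjusted p = 0.853), and control replicate 2 was its lowest library.

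The 6 beta ring paralogs held both the lowest and the highest log2 fold change among the paralogs. Prosbeta5R2 had 26.7, 26.4 and 25.2 scaled CPM in DHR39 flies, against 23.1, 17.7, 26.3, 21.5 and 20.5 in controls (0.26 ± 0.12, edgeR adjusted p = 0.182, with 0.40 and 0.0349 for library totals alone). Control replicate 3 lay among the DHR39 values, and the other controls were below them. Prosbeta5R1, the other copy of Prosbeta5 and the most abundant paralog per kilobase, had 50.4, 43.6 and 46.8 in DHR39 flies, against 53.8, 43.7, 69.1, 47.2 and 45.4 in controls (-0.14 ± 0.14, edgeR adjusted p = 0.591). The level of control replicate 3 stood above all others there. Prosbeta2R2 had 19.6, 20.5 and 15.7 in DHR39 flies, against 23.9, 20.8, 26.2, 20.6 and 20.9 in controls, and was the single paralog with all DHR39 libraries below all controls, by a narrow margin and without passing the test (-0.27 ± 0.12, edgeR adjusted p = 0.170). Prosbeta2R1 had 21.01, 16.7 and 16.9 in DHR39 flies, against 14.5, 15.6, 20.8, 16.9 and 16.4 in controls (0.11 ± 0.13, edgeR adjusted p = 0.655). These 2 copies of Prosbeta2 had fold changes of opposite sign, neither of which passed. Prosbeta4R1 and Prosbeta4R2 are neighbours on 2L in the same orientation, 1467 bases apart, from 2653046 to 2653926 and from 2655394 to 2657102. Prosbeta4R1 had 13.1, 12.7 and 8.97 in DHR39 flies, against 13.1, 14.3, 18.01, 12.04 and 9.69 in controls (-0.21 ± 0.19, edgeR adjusted p = 0.544). Prosbeta4R2 had 52.3, 44.1 and 50.5 in DHR39 flies, against 49.7, 45.2, 60.5, 47.4 and 44.4 in controls (-0.012 ± 0.12, edgeR adjusted p = 0.964). Prosbeta4R2 was the higher of the neighbours per kilobase, at 29.8 and 14.0 scaled CPM in DHR39 flies and 30.0 and 16.2 in controls, but its exons overlap those of Or23a on the same strand, so its value is uncertain.

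The 5 paralogs of regulatory subunits had overlapping groups too. Among the ATPase copies, Rpt6R had 50.3, 44.8 and 43.2 scaled CPM in DHR39 flies, against 39.5, 38.9, 47.02, 40.03 and 41.1 in controls (0.16 ± 0.10, edgeR adjusted p = 0.324). Control replicate 3 was the one control inside the DHR39 range. Rpt3R had 30.4, 28.6 and 28.3 in DHR39 flies, against 29.6, 23.1, 33.5, 25.6 and 24.97 in controls (0.089 ± 0.12, edgeR adjusted p = 0.711). Rpt4R had 17.4, 18.3 and 18.3 in DHR39 flies, against 19.6, 17.8, 21.04, 16.00 and 14.9 in controls (0.013 ± 0.12, edgeR adjusted p = 0.965). In both, control replicate 3 was the highest library. Rpn12R, a copy of the lid subunit Rpn12, had 40.5, 32.4 and 33.8 in DHR39 flies, against 40.05, 32.1, 46.7, 34.8 and 33.3 in controls (-0.072 ± 0.13, edgeR adjusted p = 0.795). Rpn13R, related to the ubiquitin receptor Rpn13, had 20.04, 16.3 and 17.2 in DHR39 flies, against 16.9, 14.9, 19.2, 18.2 and 15.04 in controls (0.083 ± 0.12, edgeR adjusted p = 0.727). In both genes the groups overlapped widely.

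The files hold another related gene under the name CG30382, which the reference annotation calls Prosalpha1R and the name rule does not reach. It had 8, 2 and 0 counts in DHR39 libraries, against 1, 2, 3, 3 and 0 in controls, and was too low to be tested.

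Set against its own counterpart in the same library, each paralog had the higher mean ratio in DHR39 flies, though for 9 of 15 the groups overlapped. The difference of mean log2 ratios, DHR39 minus control, was above 0 for 15 of 15 paralogs, from 0.053 for Prosbeta2R2 to 0.65 for Prosbeta5R2, and in 6 of 15 the groups did not overlap. Several paralogs share a counterpart, so these are not 15 separate observations, and the lower levels of the canonical subunits enter every ratio. By scaled CPM 25 of 31 canonical subunits already had all DHR39 libraries below all controls, against 13.4% of tested genes. No share of ratios without overlap was computed over other gene pairs, so the 6 have no background. Per kilobase, Prosbeta5R2 amounted to 15.5% ± 0.538 of Prosbeta5 in DHR39 flies and 9.99% ± 1.65 in controls (SD, n = 3 and n = 5). Prosalpha4T2 amounted to 50.8% ± 1.39 of Prosalpha4 in DHR39 flies and 39.9% ± 4.18 in controls. Rpn12R came nearest to its counterpart, at 66.2% ± 7.22 of Rpn12 in DHR39 flies and 56.3% ± 10.4 in controls, and Prosalpha3T was farthest from it, at 8.79% ± 0.349 of Prosalpha3 in DHR39 flies and 6.94% ± 1.68 in controls. The other pairs without overlap were Prosalpha3T with Prosalpha3, Rpt3R with Rpt3, Rpt6R with Rpt6 and Prosbeta4R2 with Prosbeta4.

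**Figure D4:**
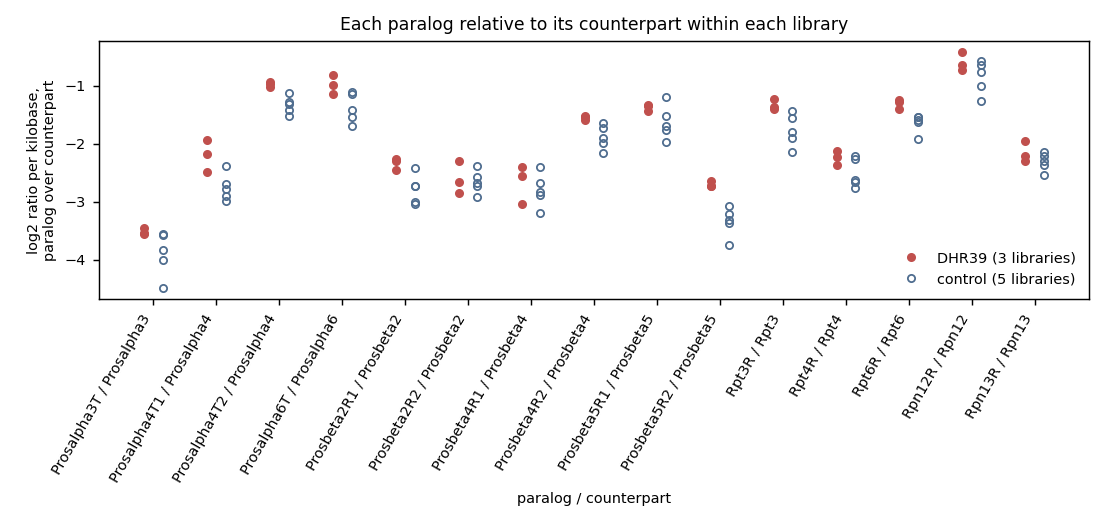
Log2 ratio of counts per kilobase of each paralog over its counterpart in each of the 3 DHR39 libraries (filled points) and 5 control libraries (open points). All paralogs lie below their counterpart, from Rpn12R at the top to Prosalpha3T at the bottom, and 6 of the 15 pairs have all DHR39 points above all control points.

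Gene structure separated the classes in part. In the annotation 6 of 15 paralogs have their coding sequence in a single exon, among them 3 of the 4 genes named for testis expression, against 4 of 31 canonical subunits. Prosalpha6T, with 1 coding exon and 289 residues, stands beside Prosalpha6 with 3 coding exons and 279 residues, and Prosalpha4T1 has 249 residues, as many as Prosalpha4. Rpn13R, at 324 residues, is shorter than Rpn13, at 424. The paralogs lie on 5 arms, 4 on 2L, 2 on 2R, 2 on 3L, 5 on 3R and 2 on X, and the canonical subunits on the same 5.

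Germline content of the flies was followed with 37 testis genes, since copies of proteasome genes are known from that tissue. Of these 35 did not pass, 2 rose and 0 fell, where 6.58% of all tested genes were called higher and 10.7% lower. The rise was 0.52 ± 0.12 for Mst84Db (edgeR adjusted p = 0.00934) and 0.83 ± 0.23 for cutlet (0.0259). The call of cutlet was lost without control replicate 4 or DHR39 replicate 2 or 3. With DESeq2, with the block and without control replicate 2, 1 testis gene was called lower. The lowest log2 fold change of the list was that of sa, at -0.58 ± 0.20 (edgeR adjusted p = 0.0629), a gene named after its value was seen. As the median log2 deviation from the control mean, the testis genes stood at 0.092, -0.044 and 0.051 in DHR39 replicates 1 to 3, against -0.0080, -0.15, 0.28, -0.038 and -0.11 in control replicates 1 to 5. The paralogs stood at 0.098, -0.0074 and 0.028 in DHR39 flies, against 0.022, -0.10, 0.30, -0.089 and -0.15 in controls. Control replicate 3 was the highest and control replicates 2 and 5 the lowest for both. The core particle stood at -0.22, -0.41 and -0.32 in DHR39 flies, against -0.036, 0.13, 0.0095, -0.038 and -0.088 in controls, where control replicate 2 was the highest. Within DHR39 flies the order of the libraries was the same for the core particle and the testis genes. Control replicate 2 was the highest control for the core particle and the lowest for the testis genes. A link between germline content and either set was not tested. The testis genes summed to 12033 ± 764 scaled CPM in DHR39 flies and 11872 ± 1472 in controls, and 14 genes of ovary and egg to 70.5 ± 0.9996 in DHR39 flies and 72.7 ± 4.06 in controls (SD, n = 3 and n = 5).

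Accessory gland and heat shock genes were followed beside the proteasome genes. Of 20 accessory gland genes 19 fell and 1 rose, against 10.7% and 6.58% of all tested genes. Their sum was 1897 to 2447 scaled CPM in DHR39 flies and 6755 to 11396 in controls. Of 20 tested heat shock genes 0 were called with edgeR, 0 had an unadjusted p under 0.05 and DESeq2 called 0 higher and 0 lower. With same-named replicates as a block, edgeR called 4 of them higher and 0 lower, against 7.90% and 11.2% of all tested genes. In that fit 8 heat shock genes had an unadjusted p under 0.05. Their median deviation was -0.51, 0.098 and 1.76 in DHR39 flies, against 0.24, -0.78, -0.70, -0.43 and 1.40 in controls, so DHR39 replicate 3 and control replicate 5, which share a replicate name, stood apart. The core particle stood at -0.32 in DHR39 replicate 3, between the other DHR39 libraries. In control replicate 5 it stood at -0.088, the lowest of the controls but above every DHR39 library. The part of accessory gland, testis or stress transcripts in the differences of the proteasome genes was not tested.

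**Figure D5:**
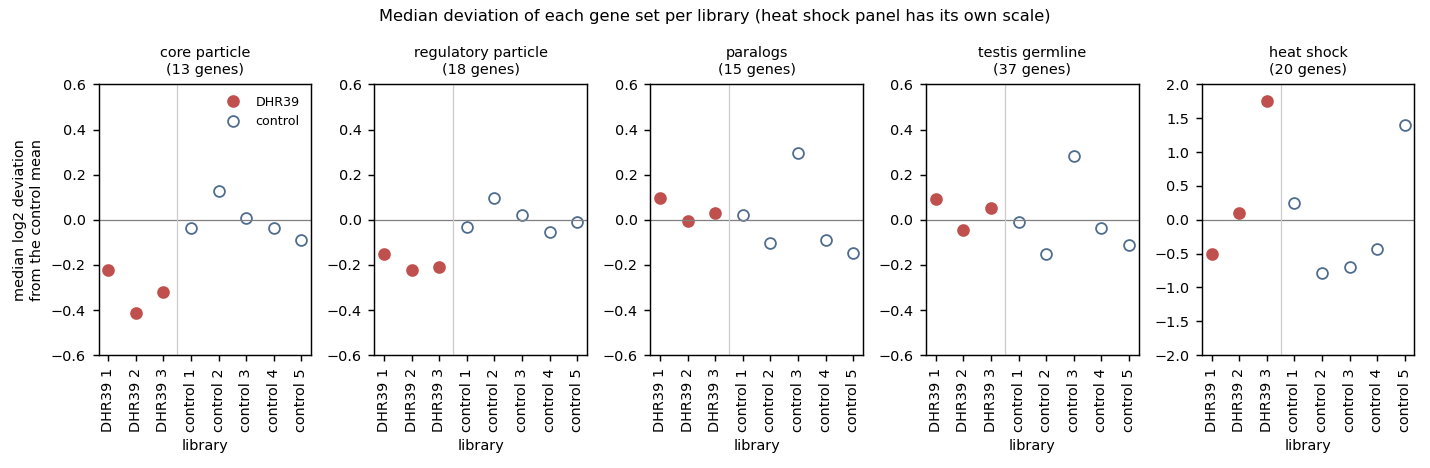
Median log2 deviation of scaled CPM from the control mean in each library (DHR39 left, control right) for the 13 core subunits, 18 regulatory subunits, 15 paralogs, 37 testis genes and 20 heat shock genes. Core and regulatory subunits are lower in all 3 DHR39 libraries, paralogs and testis genes are both highest in control replicate 3, and heat shock genes stand apart in DHR39 replicate 3 and control replicate 5.

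Of 11 partners and assembly factors of the proteasome 2 fell, 0 rose and 9 did not pass, where 10.7% of all tested genes were called lower and 6.58% higher. Counts this small in short lists lie near those shares. Pomp, the maturation factor that helps to build the core particle, had 91.3, 73.1 and 73.5 scaled CPM in DHR39 flies, against 102.8, 118.4, 108.1, 90.9 and 98.9 in controls. It fell by 0.39 ± 0.11 (edgeR adjusted p = 0.0293, in a range of 0.00873 to 0.136) and passed in 10 of 14 settings, not with library totals alone or without control replicate 2, DHR39 replicate 2 or DHR39 replicate 3. DHR39 replicate 1 overlapped the lowest control. CG12321 had 78.7, 70.4 and 64.5 in DHR39 flies, against 101.7, 109.5, 114.5, 89.2 and 95.5 in controls, and fell by 0.52 ± 0.11 (edgeR adjusted p = 0.00480) in all 14 settings. The groups of CG12321 did not overlap. PI31, a proteasome regulator, and the deubiquitinase Usp14, the most abundant of these by CPM in controls, did not pass, at log2 fold changes of -0.11 ± 0.09 (edgeR adjusted p = 0.518) and -0.22 ± 0.09 (0.140).

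In flies the transcription factor cnc raises proteasome genes and Keap1 restrains it. Of 6 genes of this branch 1 fell, 0 rose and 5 did not pass, where 10.7% of all tested genes were called lower and 6.58% higher. Keap1 had 20.7, 23.0 and 21.0 scaled CPM in DHR39 flies, against 32.2, 25.4, 27.2, 30.7 and 25.0 in controls, and fell by 0.38 ± 0.11 (edgeR adjusted p = 0.0337), with adjusted p up to 0.151 and a call in 8 of 14 settings, not with library totals alone or without control replicate 1 or 4 or any DHR39 library. The level of cnc was 332 ± 47.7 in DHR39 flies and 361 ± 27.3 in controls (SD, n = 3 and n = 5; edgeR adjusted p = 0.528). Of 11 genes of ubiquitin and its delivery 1 rose, 0 fell and 10 did not pass, while with library totals alone 3 rose and 0 fell, against 14.8% and 7.70% of all tested genes. Ubi-p63E, a polyubiquitin gene, had 365.5, 393.9 and 413.4 in DHR39 flies, against 285.9, 254.3, 295.3, 295.4 and 306.4 in controls. All DHR39 libraries lay above all controls, and Ubi-p63E rose by 0.44 ± 0.09 (edgeR adjusted p = 0.00377) in all 14 settings. Of 9 genes of the Cul3 ligase and the caspases it controls in spermatids 0 were called by edgeR or DESeq2, and 0 had an unadjusted p under 0.05.

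The authors' deposited table for DHR39 calls 17 canonical subunits lower and 0 higher, against 11.8% of all genes lower and 7.24% higher. Those 17 include all 13 called here, and the authors' deposited table calls 0 of the 15 paralogs. Libraries are shared between that table and the fit here, so the counts are not independent.

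Overlapping genes limit some single values. The strand setting of the counting was not stated in the sources consulted, and 12 of 31 canonical subunits and 1 of 15 paralogs share exon positions with a gene on the other strand. Of the subunits that fell these are Prosbeta2, Prosbeta4 and Prosbeta5. Paralogs resemble their counterparts in sequence, so reads of either could be split between them.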

How the data were processed

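RNA of whole flies was sequenced from poly(A)-selected stranded libraries, 3 DHR39 and 5 control. Per the submitters' processing notes DESeq2 1.20.0 and 1.22.2, featureCounts 1.6.3, STAR 2.6.1b and cutadapt 1.16 were among the tools, with builds named BDGP6 and dm6 and no role or order given. The authors deposited raw counts per gene, which were used for every fit. The authors' sample sheet gives each library a size factor, a ratio that scales its counts, and replicate names. The authors' deposited table of their own comparison holds log2 fold changes and adjusted p-values, used for counts of calls alone.

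Counts of 13506 of 14865 genes passed filterByExpr and were fitted in edgeR 4.0.16 and tested by quasi-likelihood (TMM factors, R 4.3.3, limma 3.58.1), two-sided, with Benjamini-Hochberg adjustment over all genes tested and calls at 0.05. The script was tested on simulated data. Alternatives were RLE factors, library totals alone, DESeq2 1.42.0, no filter, a block of replicate names and leaving out each library. Levels per kilobase use exon lengths of Ensembl release 115, in which all 46 members were found. Median deviations use a pseudocount of 0.5 scaled CPM. Replicate names in the sample sheet join control replicates 3, 4 and 5 to DHR39 replicates 1, 2 and 3, and the deviations from the group means correlated at 0.215, 0.108 and 0.183 in those pairs. Control replicates 1 and 2 have no partner.

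Values in every library are given for each paralog, each canonical subunit called, and the 3 canonical subunits highest and 3 lowest per kilobase. From other lists, genes called or among the 2 most abundant could be named, and only some were. The members and lists were chosen with earlier results of these data known.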

Additional observations from a re-analysis of the deposited data

Results flagged for a closer look

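Single control libraries stood far from the other controls in 2 of the 50 control groups examined, and chance alone gives about 1 in 20. For Prosalpha2, control replicate 2 had 149.2 scaled CPM while the other controls lay between 133.4 and 136.7. For Rpt6R, control replicate 3 had 47.02 scaled CPM while the other controls lay between 38.9 and 41.14. Neither gene passed the test with or without that library.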

How the results depend on the processing

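The count of canonical subunits called lower was 13 with RLE factors, 15 with DESeq2, 11 with no filter and 1 with library totals alone, and 2 to 10 when single libraries were left out. A block of replicate names gave 9 canonical subunits and 0 paralogs, with 1067 genes higher and 1513 lower over all genes. Paralogs called higher numbered 1 with library totals alone and 0 to 1 without single libraries. Over all genes 1997 were called higher with library totals alone, and 553 to 955 without single libraries. Leaving out single libraries gave 1013 to 1458 genes called lower over all genes. With library totals alone the log2 fold change turned to 0.070 for Rpn13, 0.067 for Rpn6, 0.13 for Prosbeta4R2, 0.00084 for Prosbeta5R1 and 0.073 for Rpn12R. The block turned Prosalpha3T to -0.038 and Prosalpha4T1 to -0.020. Leaving out single libraries gave log2 fold changes of -0.0072 to 0.071 for Rpn8, -0.020 to 0.16 for Prosalpha3T, -0.057 to 0.16 for Prosalpha4T1, -0.032 to 0.11 for Prosalpha6T, -0.046 to 0.078 for Rpt4R, -0.0020 to 0.20 for Prosbeta2R1, -0.063 to 0.070 for Prosbeta4R2, -0.18 to 0.020 for Rpn12R and -0.0077 to 0.15 for Rpn13R. The cause of these shifts was not tested. With the longest transcript as the length, control levels changed for Prosalpha5 (149.4 per kilobase), Rpn13 (85.8), Rpn6 (134.8), Rpn9 (77.2), Rpn8 (73.8) and Rpt3R (19.1), by more than 1 SD of the controls for Rpn13, Rpn6 and Rpn9.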
